A study of Mus musculus with 3 samples.

Results

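Within the LApcL library, Lef1 transcripts were counted in some cells and were not found in others, and both kinds of cell are compared here. LApcL cells were kept if their barcode string occurred in no other library of the series, if they had at least 10000 unique molecular identifiers (UMIs, each the tag of 1 captured RNA molecule) and if at most 20% of those UMIs came from mitochondrial genes. Every kept cell was thinned at random to 10000 UMIs. Cells with at least 1 Lef1 UMI after thinning were called Lef1-positive, and cells with 0 Lef1 UMIs in their full counts were called Lef1-zero. The rule kept 1931 cells of LApcL, of 34185 barcodes in the series. They divided into 696 Lef1-positive cells (36.0%, 95% Clopper-Pearson interval 33.9 to 38.2), 664 Lef1-zero cells (34.4%) and 571 cells in between (29.6%), whose Lef1 UMIs were seen only before thinning. The Lef1 counts chose the cells, so Lef1 itself is described and not compared.

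The study grew organoids, small hollow bodies of epithelial cells, from the small intestine of C57BL/6 mice and profiled them by droplet-based single-cell RNA sequencing. WT organoids were wild type. LApc organoids carried Lgr5-CreERT2 and Apc fl/fl, and LApcL organoids carried Lgr5-CreERT2, Apc fl/fl and Lef1 fl/fl. The Cre allele, which the study's methods call Lgr5-EGFP-IRES-CreERT2, is active only in cells that express the stem cell gene Lgr5, and only after tamoxifen. All mice, WT included, were 7 to 8 weeks old and received 2 doses of 2 mg tamoxifen. By the labels WT and LApcL were taken 21 days after tamoxifen and LApc 29 days after it, and all organoids were at passage 3, day 6. For LApc and LApcL organoids the study's methods name 21 days among the times of crypt isolation, but not 29 days. Each genotype had 1 library, and how many mice or cultures went into it is not given in the sources used here. Cells of 1 library are not replicates, so no p-value was computed, and all intervals cover counting error only.

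Lef1 is a transcription factor of the Tcf/Lef family, which brings β-catenin to the DNA of Wnt target genes. Apc is part of the complex that destroys β-catenin, so cells without Apc switch on Wnt target genes without a Wnt ligand. Among these targets are secreted and intracellular inhibitors that feed back on the pathway. Lef1 is hardly made in the normal intestine and appears in Apc-mutant epithelium.

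Lef1 (ENSMUSG00000027985) lies on chr3:131110471-131224356, forward strand, in GRCm38. After thinning it was counted at 56.8 CPM (UMIs per 1e6 UMIs) over all kept LApcL cells, at 82.9 CPM in LApc and at 1.08 CPM in WT. Of the kept cells, 1000 of 2161 in LApc (46.3%) and 12 of 1208 in WT (0.993%, 0.514 to 1.73) had a Lef1 UMI after thinning. The median depth before thinning was 32584 UMIs in LApcL, 34377 in LApc and 38073.5 in WT, so the WT cells were the deepest of the 3 libraries. In the shallow barcodes that LApcL shared with other libraries, Lef1 was at 3.78 CPM (2.45 to 5.58). The counts are summed per gene and made from reads near the 3′ end, so they do not check whether the floxed part of Lef1 was deleted. A Lef1-positive LApcL cell is therefore a cell with Lef1 RNA, and in these counts an intact gene cannot be told apart from a deleted gene that is still transcribed. The study describes a separate check of the deletion in its organoids, which is not analysed here.

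Lef1 counts were low in most cells. Of the kept LApcL cells, 1235 had 0 Lef1 UMIs after thinning, 445 had 1, 161 had 2 and 90 had 3 or more, with a highest count of 11. The 445 cells with 1 UMI were just inside the threshold. Just outside it were the 571 cells in between, with a median of 1 Lef1 UMI in the full counts. The variance of the count was 1.67 times its mean in LApcL, 1.70 times in LApc and 1.14 times in WT. Averaged over every possible thinning, 683 LApcL cells would be positive, with an SD of 15.2 between thinnings. Capture takes only part of a cell's RNA, so a Lef1-zero cell is not shown to lack Lef1, and every difference below is between cells with captured Lef1 and cells without it.

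**Figure D1:**
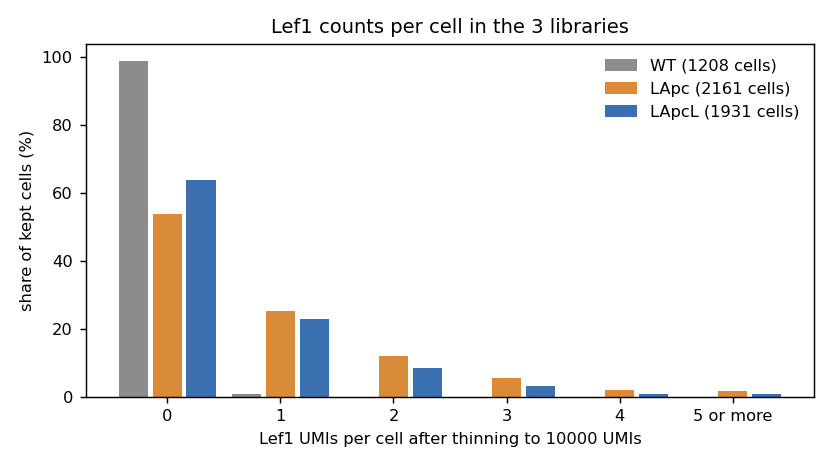
Share of kept cells (y axis, percent) by Lef1 UMIs per cell after thinning to 10000 UMIs (x axis) in WT (1208 cells), LApc (2161 cells) and LApcL (1931 cells). Bars of the WT library are almost all at 0 UMIs, while LApc and LApcL extend to 5 or more, with 1000 LApc and 696 LApcL cells above 0.

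The compared groups differed in depth before thinning. Lef1-positive LApcL cells had a median of 30210.5 UMIs, Lef1-zero cells 26967 and cells in between 42779. Of the 483 shallowest LApcL cells, up to 22204 UMIs, 52.8% were Lef1-zero, and of the 483 deepest, from 50289 UMIs, 23.8% were. After thinning, a median of 3285 genes was detected in Lef1-positive cells and 3159 in Lef1-zero cells. The median mitochondrial share was 6.42% and 6.60%. The doublet rule marked 106 of the 696 Lef1-positive cells (15.2%) and 81 of the 664 Lef1-zero cells (12.2%). Both groups were epithelial: the 5 epithelial markers summed to 6622 CPM in Lef1-positive and 6848 CPM in Lef1-zero cells. Of these 5, 2 were higher in Lef1-positive cells, among them Epcam at 2308 and 2009 CPM, and 3 were lower. The 6 blood and stromal markers summed to 0.862 and 0.151 CPM and the 5 endothelial markers to 4.74 and 7.08 CPM. Kdr, 1 of these endothelial markers, was at 0.144 and 0.452 CPM. Their part in the differences below was not tested beyond the alternatives in the closing paragraphs.

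Few genes differed strongly between the groups. Of 3300 genes at 50 CPM or more in at least 1 of the groups, 14 (0.424%) were at least 2-fold higher in Lef1-positive cells and 23 (0.697%) at least 2-fold lower, 1.12% in all. These counts depended on the settings: 3 genes were at least 2-fold higher with clusters weighted equally, 3 against all cells with 0 Lef1 UMIs after thinning and 52 with no minimum level beyond 10 UMIs, and 9 were at least 2-fold lower without the Paneth-like cluster. Among the higher genes were Dkk2, Selenbp1, Pcsk1, Msx1, Ass1, Tbx3, Greb1, Bnip3, Egln3, Sct, Id3, Papss2 and Ndrg1. The lower genes were led by Paneth cell defensins. The median log2 ratio over all 3300 genes was 0.06, and 62.5% of them were above 0.

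Among Wnt feedback inhibitors, Dkk2 stood highest. Dkk2, which encodes a secreted Dickkopf protein that binds Wnt co-receptors, was at 72.6 CPM in Lef1-positive cells, 38.4 CPM in the cells in between and 24.7 CPM in Lef1-zero cells. Its log2 ratio, here and below of CPM + 1 in Lef1-positive against Lef1-zero cells, was 1.52 (1.27 to 1.77). Dkk2 was detected in 208 of 696 Lef1-positive cells (29.9%) and in 88 of 664 Lef1-zero cells (13.3%), so most cells of either group had no Dkk2 UMI. In WT organoids it had 2 UMIs in all (0.166 CPM). Leaving out the cell with the most Dkk2 UMIs in each group gave a log2 ratio of 1.55.

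Dkk2 is a neighbour of Lef1 on its chromosome: it spans chr3:132085292-132180304 and starts 860936 bases beyond the end of Lef1. Of the 19 genes within 2000000 bases of Lef1 that had at least 100 UMIs, Dkk2 was the 1 gene past 2-fold. Of the 3300 genes at 50 CPM or more, which is another filter, 1.12% were past 2-fold in either direction. The complement factor gene Cfi came next, with 40.7 CPM in Lef1-positive and 21.7 CPM in Lef1-zero cells and a log2 ratio of 0.88 (0.59 to 1.16). Hadh, a gene of fatty acid oxidation that lies 9063 bases beyond the end of Lef1 on the opposite strand, was at 127 and 95.5 CPM (log2 ratio 0.41, 0.26 to 0.56). The ribosomal protein gene Rpl34 was at 2571 and 2580 CPM.

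The other feedback inhibitors differed less, mostly in the same direction. Axin2, a scaffold of the β-catenin destruction complex, was at 379 CPM in Lef1-positive cells and 294 CPM in Lef1-zero cells (log2 ratio 0.37, 0.28 to 0.45). Nkd1, an intracellular inhibitor, was at 252 and 165 CPM (0.60, 0.49 to 0.71). Rnf43, a ubiquitin ligase that removes Wnt receptors from the cell surface, was at 190 and 119 CPM (0.68, 0.55 to 0.80), and its relative Znrf3 was at 52.0 and 42.8 CPM (0.28, 0.05 to 0.50). Notum, an enzyme that inactivates Wnt ligands, was at 102 and 79.5 CPM (0.36, 0.19 to 0.52). Apcdd1, a membrane inhibitor, was at 50.3 and 32.2 CPM (0.63, 0.38 to 0.87), and the transcription factor gene Sp5 at 101 and 75.3 CPM (0.42, 0.26 to 0.59). Wif1 and Dkk3, both secreted inhibitors, stayed low in both groups, at 12.5 and 8.73 CPM for Wif1 and at 4.45 and 5.12 CPM for Dkk3.

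Of the 10 feedback inhibitors, 9 were above 0, against 62.5% of all genes tested, and 4 were at or past a log2 ratio of 0.5, against 3.48%. Their median log2 ratio was 0.45. Nkd1 and Notum were nevertheless on in Lef1-zero cells: Nkd1 was at 0.497 CPM and Notum at 0.414 CPM in WT organoids, against 165 and 79.5 CPM in Lef1-zero LApcL cells. Axin2 was detected in 579 of 664 Lef1-zero cells (87.2%), in 649 of 696 Lef1-positive cells (93.2%) and in 183 of 1208 WT cells (15.1%).

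RefSeq promoter windows of GRCm38.p6, 250 bases before to 50 bases after the gene start, were searched for the Tcf/Lef core CTTTGAT on either strand. Of the 24 genes made up of Lef1, the 14 higher genes and the feedback inhibitors, 17 had a window. The letters occurred for 2 of these 17, Sp5 and, in 1 of its windows, Greb1. Over all genes they occurred in 1160 of 27025 genes with a window (4.29%), and in 3.73% of 32851 windows. Shown are the windows of Sp5, with the match in capitals, of Dkk2, the feedback gene with the highest ratio, and the earliest window of Lef1. A match is a description of the letters and not a bound site.
Sp5 chr2:70474673-70474972, forward strand: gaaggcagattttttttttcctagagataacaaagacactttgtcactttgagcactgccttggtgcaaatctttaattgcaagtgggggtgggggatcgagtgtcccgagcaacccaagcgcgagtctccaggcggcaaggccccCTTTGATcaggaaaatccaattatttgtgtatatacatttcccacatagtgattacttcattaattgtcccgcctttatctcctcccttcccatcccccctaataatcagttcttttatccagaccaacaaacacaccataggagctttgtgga
Dkk2 chr3:132085042-132085341, forward strand: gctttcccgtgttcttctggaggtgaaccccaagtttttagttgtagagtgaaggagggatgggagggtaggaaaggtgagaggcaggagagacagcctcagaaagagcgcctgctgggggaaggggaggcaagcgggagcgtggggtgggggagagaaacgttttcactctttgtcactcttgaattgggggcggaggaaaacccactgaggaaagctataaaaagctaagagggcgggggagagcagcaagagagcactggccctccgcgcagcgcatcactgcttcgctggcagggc
Lef1 chr3:131110047-131110346, forward strand: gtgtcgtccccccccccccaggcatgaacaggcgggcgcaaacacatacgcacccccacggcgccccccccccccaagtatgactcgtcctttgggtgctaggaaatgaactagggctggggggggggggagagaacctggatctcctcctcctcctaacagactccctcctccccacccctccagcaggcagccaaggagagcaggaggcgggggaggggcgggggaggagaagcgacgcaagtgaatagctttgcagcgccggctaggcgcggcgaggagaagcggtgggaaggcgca
The match in the Sp5 window began 104 bases before the gene start, and neither of the other windows shown held those letters.

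Several transcription regulators stood beside Dkk2 among the genes past 2-fold. Msx1, a homeobox factor, was at 123 CPM in Lef1-positive cells, 84.4 CPM in the cells in between and 51.7 CPM in Lef1-zero cells (log2 ratio 1.24, 1.06 to 1.42), and had 5 UMIs in WT. It was detected in 336 of 696 Lef1-positive cells (48.3%) and in 186 of 664 Lef1-zero cells (28.0%). Tbx3, a T-box factor, was at 183 and 79.4 CPM (1.19, 1.05 to 1.34), and at 65.8 CPM in WT. Id3, an inhibitor of basic helix-loop-helix factors and a Bmp target, was at 491 and 230 CPM (1.09, 1.01 to 1.18). Its relative Id1 was at 317 and 182 CPM (0.80, 0.70 to 0.90). A further relative, Id2, was at 230 and 187 CPM (0.30, 0.19 to 0.40), a smaller difference, and over cells with 0, 1, 2 and 3 or more Lef1 UMIs it was at 222, 246, 202 and 198 CPM.

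**Figure D2:**
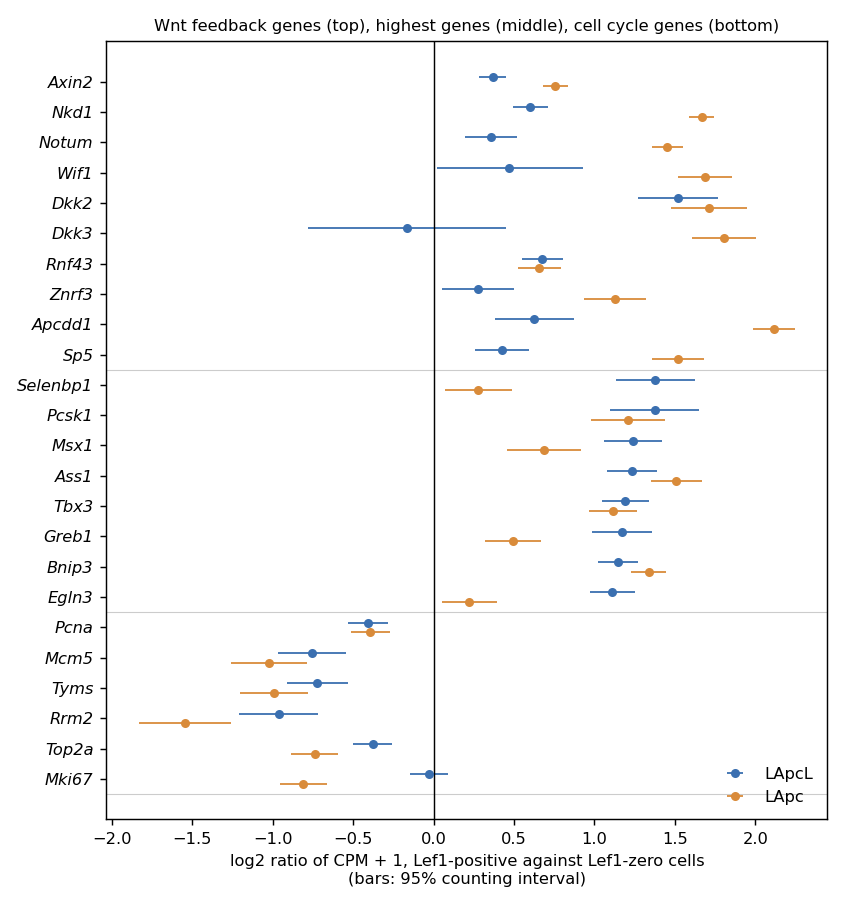
Log2 ratio of CPM + 1 in Lef1-positive against Lef1-zero cells (x axis) for Wnt feedback genes, the highest genes of LApcL and cell cycle genes (y axis), in LApcL and LApc, with 95% counting intervals as bars. Feedback genes lie above 0 in LApcL, apart from Dkk3 at -0.17, and farther right in LApc for 9 of the 10, while cell cycle genes lie at or below 0 in both.

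Several of the other genes past 2-fold encode enzymes. Selenbp1, a selenium-binding protein, was at 71.7 and 27.0 CPM (1.38, 1.14 to 1.62) and Pcsk1, a prohormone convertase, at 55.5 and 20.8 CPM (1.37, 1.10 to 1.65). Ass1, an enzyme of arginine synthesis, was at 161 and 67.8 CPM (1.23, 1.08 to 1.39). The estrogen-regulated gene Greb1 was at 110 and 48.3 CPM (1.17, 0.99 to 1.36). The sulfate-activating enzyme gene Papss2 was at 52.0 and 24.1 CPM (1.08, 0.82 to 1.35). Genes known to be induced by low oxygen were also past 2-fold. Bnip3, a mitophagy gene, was at 252 and 114 CPM (1.14, 1.02 to 1.27), and Egln3, an oxygen-sensing hydroxylase, at 194 and 89.3 CPM (1.11, 0.97 to 1.25). Ndrg1 was at 228 and 109 CPM (1.05, 0.93 to 1.18).

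The hormone gene Sct rested on a single cell. It was at 59.6 CPM in Lef1-positive and 27.3 CPM in Lef1-zero cells, but 1 Lef1-positive cell held 277 of its 415 UMIs (66.7%). Without the top cell of each group Sct was at 19.9 and 21.3 CPM, a log2 ratio of -0.09, and with another thinning seed the ratio was -1.67. For the other 13 higher genes the log2 ratio without the top cells was between 1.08 and 1.55.

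Other Wnt and Myc target genes, a list that includes Msx1, were divided. Of 15 measured members 10 were above 0, near the 62.5% of all genes tested, and 5 were below. At or past log2 0.5 were 2 members, against 3.48% of all genes, and at or past -0.5 were 2, against 2.09%, and the median was 0.15. Prox1, a homeobox factor gene, was at 218 and 144 CPM (0.59, 0.48 to 0.71) and Sox4 at 1070.5 and 845 CPM (0.34, 0.29 to 0.39). Ccnd1, which encodes cyclin D1, was at 352 and 368 CPM (-0.06, -0.15 to 0.02), and Myc itself at 66.5 and 55.4 CPM (0.26, 0.06 to 0.46). Of the other Tcf/Lef genes, Tcf7l2 was at 111 and 93.7 CPM (0.24, 0.09 to 0.39), Tcf7 at 23.0 and 21.8 CPM and Tcf7l1 at 8.76 and 7.53 CPM. Over all compared cells none of these 3 genes was lower in Lef1-positive cells. Within cluster 2, described below, 3 of the 4 members of the Tcf/Lef list, which includes Lef1 itself, were below 0. Tcf7l2 had a log2 ratio of -0.07 there (-0.32 to 0.18).

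Stem cell markers differed little. Lgr5, the stem cell gene whose locus drives the Cre, was at 117 CPM in Lef1-positive and 89.9 CPM in Lef1-zero cells (0.37, 0.22 to 0.52), and was detected in 398 of 696 (57.2%) and 313 of 664 cells (47.1%). Slc12a2, an ion transporter gene, was at 783 and 557 CPM (0.49, 0.43 to 0.55), and Mex3a at 53.7 and 33.1 CPM (0.68, 0.44 to 0.92). Of 11 measured markers 7 were above 0 and 4 below, a share near the 62.5% of all genes tested, with a median of 0.21. Bmp ligands and targets had a median of 0.34 over 10 members, 9 of them above 0, against 62.5% of all genes tested. Id3 and Id1 had the highest ratios of that list, while the ligands Bmp4 and Bmp7 were at 1.15 and 0.904 CPM and at 19.4 and 18.4 CPM. Hes1, a Notch target, was at 586 and 404 CPM (0.54, 0.47 to 0.61), and the Notch and secretory fate list had a median of 0.06. Of 10 stress genes 7 were above 0, near the share of all genes, none was at or past log2 0.5 and the median was 0.20.

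Genes of DNA synthesis were lower in Lef1-positive cells. All 17 S phase genes were below 0, against 37.5% of all genes tested, and 7 were at or past -0.5, against 2.09%. Their median was -0.46, and it was -0.19 with clusters weighted equally, -0.18 among cells without an Mki67 or Top2a UMI and -1.08 for at least 2 Lef1 UMIs. Rrm2, a subunit of ribonucleotide reductase, was at 29.0 and 57.5 CPM (-0.96, -1.21 to -0.72), and Tyms, thymidylate synthase, at 52.2 and 86.7 CPM (-0.72, -0.91 to -0.53). Mcm5, part of the replicative helicase, was at 41.8 and 71.2 CPM (-0.75, -0.97 to -0.55), and Pcna at 136 and 181 CPM (-0.41, -0.53 to -0.29). Rrm2 was detected in 124 of 696 Lef1-positive cells (17.8%) and in 188 of 664 Lef1-zero cells (28.3%). All 10 ribosome biogenesis genes were also below 0, with a median of -0.23 and Nop56 at 159 and 222 CPM (-0.47, -0.59 to -0.36). The 77 ribosomal protein genes had a median of -0.04.

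Mitosis genes were less clearly lower. Their median was -0.25, with 16 of 20 below 0, against 37.5% of all genes tested, and 2 at or past -0.5, against 2.09%. Mki67, a marker of cycling cells, was at 165 and 168 CPM (-0.03, -0.15 to 0.09), while Top2a, a topoisomerase of cycling cells, was at 148 and 192 CPM (-0.38, -0.50 to -0.26). In the cells in between, which were the deepest before thinning, Mki67 was at 196 CPM and Top2a at 193 CPM. With all clusters given equal weight the mitosis median was -0.02. Of the fetal-like and Yap target genes 6 of 9 were below 0, against 37.5% of all genes tested, and 3 were above, Ccn1 being at 366 and 311 CPM (0.23, 0.15 to 0.32). Among the lower members were Ly6a at 322 and 475 CPM (-0.56, -0.63 to -0.48) and the secreted protein gene Spp1 at 5.60 and 31.3 CPM (-2.29, -2.74 to -1.85). Spp1 was carried by 41 Lef1-zero cells, 1 of which held 55 of their 208 UMIs, and in cluster 4 it was at 36.0 CPM in Lef1-positive and 230 CPM in Lef1-zero cells.

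The levels were also followed over the number of Lef1 UMIs. The groups compared above were set by the same Lef1 counts, so these levels describe the same contrast more finely and are no separate result. Over cells with 0, 1, 2 and 3 or more Lef1 UMIs, Dkk2 was at 31.0, 49.7, 106 and 127 CPM. Msx1 was at 66.8, 104, 132 and 202 CPM, Tbx3 at 105, 170, 176 and 258 CPM, and Id3 at 300, 462, 525 and 572 CPM. These 4 genes, chosen with that contrast in view, had their highest level in the 90 cells with 3 or more Lef1 UMIs. Axin2 was at 304, 367, 383 and 431 CPM, and Nkd1 at 178, 240, 244 and 324 CPM. Of 8 feedback inhibitors at a sufficient level 7 went up at each step, against 16.2% of all genes tested, and Znrf3, at 44.1, 50.6, 48.4 and 65.6 CPM, did not. Pcna was at 177, 163, 102 and 66.7 CPM, and 12 of 14 S phase genes went down at each step, against 18.1% of all genes tested. The cells with 0 in this series include both the Lef1-zero cells and the cells in between.

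**Figure D3:**
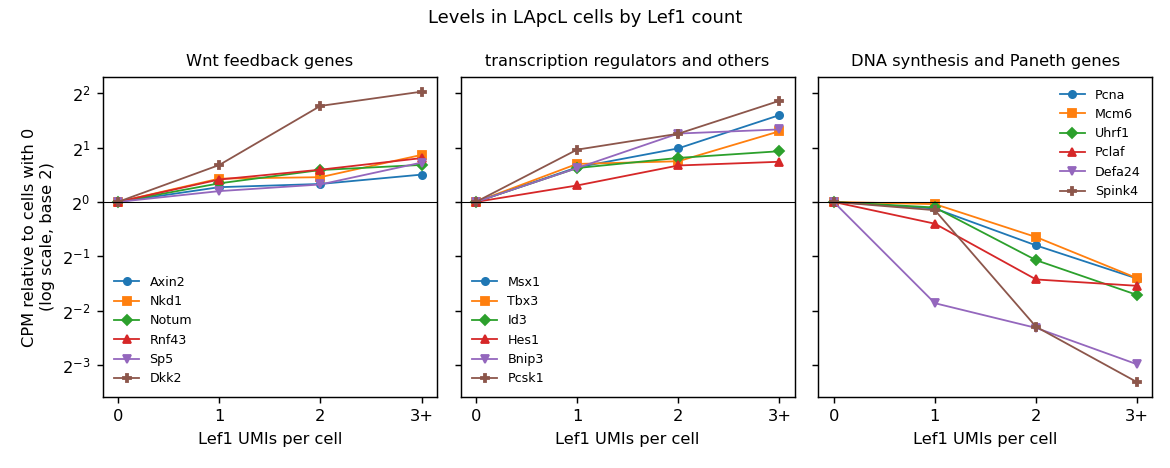
CPM relative to cells with 0 Lef1 UMIs (y axis, log scale of base 2) in LApcL cells with 0, 1, 2 and 3 or more Lef1 UMIs after thinning (x axis; 1235, 445, 161 and 90 cells). The 6 feedback genes and the 6 other genes plotted go up at each step, Dkk2 from 31.0 to 127 CPM, and the 4 DNA synthesis genes, Defa24 and Spink4 go down, Pcna from 177 to 66.7 CPM.

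Lef1-positive cells were found in every cluster of LApcL but not evenly. The 1931 cells were clustered without Lef1 and without the genes of the fixed lists, which gave 6 clusters. Cluster 2, led by Pate7, Dkk2, Aldoc, Pcsk1 and Selenbp1, held 665 cells, of which 343 (51.6%, 47.7 to 55.4) were Lef1-positive. These were 49.3% of all Lef1-positive cells, while 20.0% of the Lef1-zero cells lay there. Cluster 1, led by Pclaf, Esco2 and Ccnb1 and holding the markers of mitosis and S phase, had 195 Lef1-positive cells of 734 (26.6%, 23.4 to 29.9) and 38.1% of all Lef1-zero cells. Of the genes past 2-fold, Dkk2, Pcsk1, Selenbp1, Ass1 and Ndrg1 were among the 10 leading genes of cluster 2. Cluster 4, led by Ly6d, Sprr1a and Spp1, had the lowest share, 25 of 128 cells (19.5%, 13.1 to 27.5). Cluster 3, led by histone genes, had 86 of 234 cells (36.8%), with a median mitochondrial share of 13.1% and 13637.5 UMIs per cell. Cluster 5, led by Chgb, had 25 of 87 cells (28.7%). Few cells carried Chgb: over all Lef1-positive LApcL cells, 1 cell held 49 of its 51 UMIs.

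**Figure D4:**
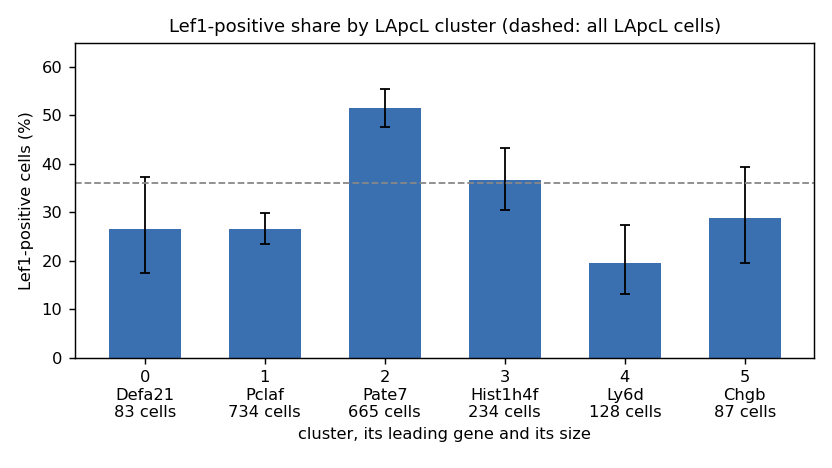
Share of Lef1-positive cells (y axis, percent, with 95% Clopper-Pearson bars) in the 6 clusters of LApcL (x axis, with the leading gene and the number of cells). Cluster 2 stands at 51.6% and the other clusters between 19.5% and 36.8%, with the dashed line at 36.0% for all kept LApcL cells.

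The ratios were also taken inside single clusters. In cluster 1, the cycling cells, Msx1 was at 86.7 CPM in Lef1-positive and 32.4 CPM in Lef1-zero cells (log2 ratio 1.39, 1.01 to 1.78). In cluster 2 it was at 142 and 88.0 CPM (0.68, 0.39 to 0.98), and in cluster 3 at 192 and 62.9 CPM (1.59, 1.19 to 2.01). Tbx3 had a log2 ratio of 1.23 in cluster 1, 0.61 in cluster 2 and 1.16 in cluster 3. Id3 had 1.15, 0.57 and 1.21 in the same clusters, and Dkk2 0.93, 1.20 and 1.82. The ratios of all 4 genes were thus smaller in cluster 2 than over all cells, and that of Dkk2 was smaller still in cluster 1. In the small clusters 0, 4 and 5 the intervals were wide: Msx1 had 0.92 (-0.35 to 2.15), 0.94 (-0.60 to 2.39) and -0.69 (-1.55 to 0.11), and Id3 had 1.65 (0.98 to 2.33), 0.18 (-0.37 to 0.71) and 0.08 (-0.24 to 0.38). Dkk2 had 1 UMI in all in the compared cells of cluster 0 and likewise of cluster 5, which gives no ratio, and had 0.47 (-0.33 to 1.22) in cluster 4. Over clusters 0 to 5 the median of the feedback inhibitors was 0.86, 0.57, 0.35, 0.34, 0.55 and 0.01. It was thus at least 0.34 in every cluster but cluster 5, where 5 of 9 measured members were above 0. The median of the S phase genes was 0.39, -0.22, -0.21, -0.51, -0.22 and -0.03 over the same clusters, and that of the mitosis genes -0.38, 0.34, -0.01, -0.55, -0.63 and -0.78. S phase genes were thus above 0 by median in cluster 0 and below it elsewhere, and mitosis genes were above 0 in cluster 1 only. The counting intervals of these medians spanned 0 for S phase genes in clusters 0, 1, 2 and 4. For mitosis genes they did so in clusters 0, 2 and 4. They did not for S phase genes in cluster 3 (-0.99 to -0.04), nor for mitosis genes in cluster 1 (0.05 to 0.63) and cluster 3 (-0.89 to -0.22).

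Paneth cell genes were lower in Lef1-positive cells, and the difference rested on a small number of cells with very many UMIs. Defa24, a defensin of Paneth cells, was at 945 CPM in Lef1-positive and 6392 CPM in Lef1-zero cells (-2.76, -2.79 to -2.72), but the median cell of both groups had 0 Defa24 UMIs. Cells with at least 100 Defa24 UMIs numbered 14 of 696 Lef1-positive (2.01%) and 41 of 664 Lef1-zero cells (6.17%). Cluster 0, which is Paneth-like by its leading defensins, held 22 Lef1-positive and 50 Lef1-zero cells and 98.9% of the Defa24 UMIs of Lef1-zero cells. All 7 measured Paneth markers were below 0, against 37.5% of all genes tested, with a median of -2.24. Lyz1 was at 152 and 722 CPM (-2.24, -2.34 to -2.15) and Itln1 at 37.9 and 309 CPM (-2.99, -3.18 to -2.81). Without cluster 0 the median was 0.29. Within cluster 0, Defa24 had a log2 ratio of -1.54. Defensin genes are near-identical copies, and how reads were divided among them is uncertain.

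**Figure D5:**
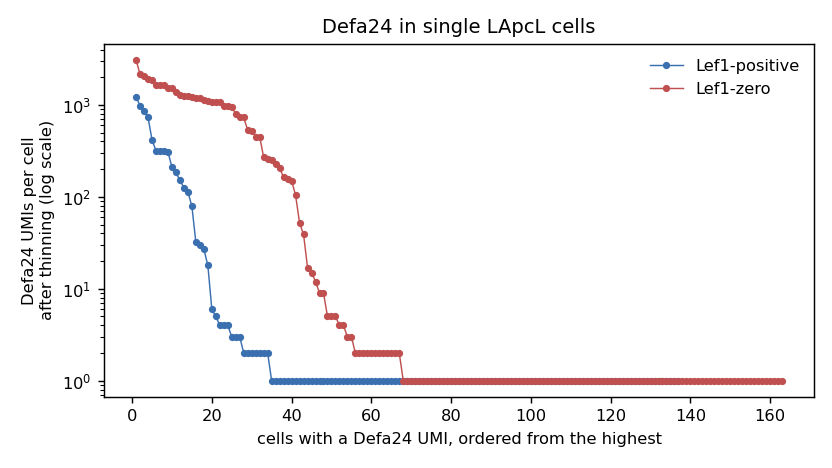
Defa24 UMIs per cell after thinning (y axis, log scale) in LApcL cells with at least 1 such UMI, ordered from the highest (x axis), for Lef1-positive and Lef1-zero cells. The highest cells hold up to 1227 in Lef1-positive and 3074 in Lef1-zero cells.

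Goblet genes also depended on cluster 0. Of 6 measured goblet markers 4 were below 0, against 37.5% of all genes tested, with a median of -0.70, and Spink4 was at 268 and 617 CPM (-1.20, -1.28 to -1.12) and the trefoil factor gene Tff3 at 409 and 808 CPM (-0.98, -1.05 to -0.91). Without cluster 0 the goblet median was 0.17. Of 5 measured enteroendocrine markers 3 were above 0, near the 62.5% of all genes tested, and 2 below, with a median of 0.60, but few cells carried them. Chgb had 51 UMIs in Lef1-positive cells, 49 of them in 1 cell, and 1 in Lef1-zero cells. Neurog3 had 0 UMIs in Lef1-positive cells and 69 in Lef1-zero cells, spread over 4 cells. Tuft markers were nearly absent, with a summed level of 0.718 CPM in Lef1-positive and 1.96 CPM in Lef1-zero cells.

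The same comparison in LApc, where the Lef1 gene was not targeted, had larger differences. There 140 of 3380 genes (4.14%) were at least 2-fold higher in the 1000 Lef1-positive cells than in the 601 Lef1-zero cells, and 85 (2.51%) at least 2-fold lower, 6.66% in all. Over the alternatives the higher count lay between 11 and 469 and the lower count between 24 and 403. Over the 3042 genes tested in both libraries the log2 ratios had an SD of 0.276 in LApcL and 0.457 in LApc. They had the same sign in 72.2% of genes, and Pearson's r across genes was 0.56, with genes that are not independent replicates. Among these, 14 genes were at least 2-fold higher in LApcL and 59 in LApc, and the 7 genes in both were 50% and 11.9% of them. In the lower direction there were 14 genes in LApcL and 67 in LApc, and the 11 genes in both were 78.6% and 16.4% of them. Each library was a single sample, so the difference between LApcL and LApc was not tested.

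The feedback inhibitors had larger ratios in LApc by value. Nkd1 was at 834 CPM in Lef1-positive and 262 CPM in Lef1-zero LApc cells (log2 ratio 1.67), and Notum at 499 and 182 CPM (1.45). Apcdd1 was at 404 and 92.5 CPM (2.12) and Prox1 at 710 and 203 CPM (1.80). Notum, Apcdd1, Wif1 and Dkk3 were higher in Lef1-zero LApc cells than in Lef1-positive LApcL cells, and Nkd1 was near the same level. Axin2, Rnf43, Znrf3, Sp5 and Dkk2 were lower there. The 10 feedback inhibitors summed to a mean of 1165 CPM in Lef1-zero LApc cells and 1216 CPM in Lef1-positive LApcL cells. All 10 feedback inhibitors were above 0 in LApc, against 59.6% of all genes tested there, with a median of 1.59, against 0.45 in LApcL. Dkk2 and Rnf43 had similar values in both libraries: Dkk2 was at 91.6 and 27.3 CPM in LApc (1.71) and Rnf43 at 159 and 100 CPM (0.66), close to their ratios in LApcL.

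Other genes had a large ratio in 1 library only by value. A list of 6 genes known from these libraries for their level in LApc, among them Npy, Spock2 and Mt3 and also Wif1 and Dkk3, had a median of 1.90 there, whereas in LApcL 4 of them were measured and had a median of -0.04. The list was chosen on these libraries and is no independent evidence. Cdkn1c, a cell cycle inhibitor, was at 274 and 79.5 CPM in LApc (1.77) and at 34.5 and 39.2 CPM in LApcL (-0.18). Conversely, Selenbp1 was at 55.2 and 45.4 CPM in LApc (0.28) and Egln3 at 79.8 and 68.2 CPM (0.22), both past 2-fold in LApcL. S phase and mitosis genes were lower in Lef1-positive LApc cells too, with medians of -0.85 and -0.74: all 17 S phase genes were below 0, against 40.4% of all genes tested, and 15 were at or past -0.5, against 8.46%. With clusters weighted equally both LApc medians changed sign, to 0.0017 for S phase and 0.52 for mitosis genes, and in the cycling cluster of LApc all 20 mitosis genes were above 0. By the labels the libraries also differed in days after tamoxifen. They differed as well in sex-linked genes, with Xist at 1498 and 1220 CPM in LApc and 0.718 and 0.452 CPM in LApcL. Neither difference can be told apart from the genotype.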

How the data were processed

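The authors aligned the reads and made a table of UMI counts per gene and barcode for each library, deposited as raw counts of 32285 genes. Per the file headers Cell Ranger 6.0.1 made them, whereas the submitters' processing notes name Cell Ranger 2.1.1 with mm10 (GRCm38). Whole libraries held 87185429 (WT), 118867221 (LApc) and 112057783 (LApcL) UMIs.

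Kept cells had at least 10000 UMIs, at most 20% mitochondrial UMIs and a barcode found in 1 library, and were thinned to 10000 UMIs (seed 1). Barcode strings shared with another library numbered 3311, 3245 and 3299. UMIs were summed over the cells of a group, and log2 ratios were taken of CPM + 1, with 95% exact conditional binomial intervals for ratios and Clopper-Pearson intervals for shares. UMIs of 1 cell are not independent, so these intervals cover counting error only. Genes were tested against a fold limit of 2 at 50 CPM or more in either group, without mitochondrial genes and Lef1, and list members needed 10 UMIs. With 1 library per genotype there was no replicate and no p-value. Named genes were those of the fixed lists and the 10 largest ratios in each direction, and others were chosen after their values were seen. An item that counts toward the totals is not reported here. The members and lists were chosen with earlier results of these data known.

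Scrublet's automatic threshold marked 2 LApcL barcodes and did not work, so doublets were taken by rank at 0.8% per 1000 barcodes and were left out only as an alternative. Clusters (Leiden, resolution 0.4, 2000 variable genes, 20 components, 20 neighbours) left out Lef1 and the genes of the fixed lists, but not the added list of genes induced by low oxygen. Python 3.11.15, numpy 2.4.6, scipy 1.17.1, pandas 2.3.3, scanpy 1.11.5 and matplotlib 3.10.9 were used, and scripts were tested on simulated data.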

Additional observations from a re-analysis of the deposited data

Results flagged for a closer look

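The enterocyte marker list stood on opposite sides of 0 in the libraries, with a median log2 ratio of Lef1-positive against Lef1-zero cells of 0.15 in LApcL (3 members measured) and -0.48 in LApc (4 members measured). The difference between the libraries was not tested. Both signs changed under alternatives: the LApcL median was -0.32 for at least 2 Lef1 UMIs and -0.22 in cells of 10000 to 20000 UMIs, and the LApc median was 0.079 with clusters weighted equally.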

How the results depend on the processing

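No paired analysis was possible because each genotype had 1 library, and for the same reason no replicate could be left out. Each LApcL value was recomputed under up to 17 alternatives, of which 2, leaving out the Paneth-like or the histone-rich cluster, were chosen after seeing the data. The median of the feedback inhibitors stayed between 0.36 and 0.66, and the ratio of Dkk2 between 0.95 and 2.15, of Msx1 between 0.73 and 1.59, of Tbx3 between 0.80 and 1.36 and of Id3 between 0.61 and 1.24. The Lef1-positive share was 51.0% when thinned to 20000 UMIs, 13% for at least 2 Lef1 UMIs, 65.6% in full counts and 42.6% among cells without an Mki67 or Top2a UMI. Genes at least 2-fold higher numbered 9 when thinned to 20000 UMIs, 36 for at least 2 Lef1 UMIs, 3 against all cells with 0 after thinning, 22 in cells of 10000 to 20000 UMIs, 3 at a minimum of 200 CPM, 52 with no minimum beyond 10 UMIs and 3 with clusters weighted equally. Genes at least 2-fold lower numbered 35 with thinning seed 2, 56 for at least 2 Lef1 UMIs, 15 against all cells with 0 after thinning, 37 in cells of 10000 to 20000 UMIs, 36 without Mki67 or Top2a UMIs, 12 at 200 CPM, 67 with no minimum and 9 without the Paneth-like cluster.

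The S phase median was -1.08 for at least 2 Lef1 UMIs, -0.18 without Mki67 or Top2a UMIs and -0.19 with clusters weighted equally, and the mitosis median was -0.62 in cells of 10000 to 20000 UMIs and -0.017 with clusters weighted equally. The Paneth median was -2.41 with thinning seed 2, -2.60 for at least 2 Lef1 UMIs, -1.60 against all cells with 0 after thinning, -2.35 in full counts, -2.55 at 10% mitochondrial UMIs, -2.44 without doublets, -2.49 in cells of 10000 to 20000 UMIs, -2.52 without Mki67 or Top2a UMIs, -1.08 with clusters weighted equally and -2.40 without the histone-rich cluster.

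Without the Paneth-like cluster these LApcL values changed sign: the Paneth median to 0.29, the goblet median to 0.17, Spink4 to 1.71, Lyz1 to 2.27, Itln1 to 0.45, Gm15293 to 0.91, Gm14851 to 0.53, Defa34 to 0.31 and Defa22 to 0.80. In LApc the cluster led by Paneth genes held 757 of 2161 cells and 48% of the Lef1-positive cells, but Defa24 was found in only 76 of the 1000 Lef1-positive and 52 of the 601 Lef1-zero cells of the library, so most of its cells had none. Leaving it out gave 0.73 for the Paneth median, 0.84 for Spink4, 0.89 for Lyz1 and 0.56 for Defa24. With clusters weighted equally the goblet median was 0.37 and Spink4 0.010 in LApcL, and in LApc the S phase median was 0.0017, the mitosis median 0.52 and the enterocyte median 0.079. The enterocyte median in LApcL was -0.32 for at least 2 Lef1 UMIs and -0.22 in cells of 10000 to 20000 UMIs. The median of mitochondrial genes was 0.093 when thinned to 20000 UMIs, 0.00032 against all cells with 0 after thinning, 0.056 in full counts and 0.044 at 10% mitochondrial UMIs. Sct was at -1.67 with thinning seed 2, -0.25 for at least 2 Lef1 UMIs and -1.04 in cells of 10000 to 20000 UMIs. The cause of the other changes was not tested. At 10000 UMIs per cell a Lef1 count of 0 does not show that a cell lacked Lef1 RNA.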

Other observations

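Genes induced by low oxygen were higher in Lef1-positive LApcL cells as a group. The list of 18 such genes was made after Bnip3, Egln3 and Ndrg1 had been seen among the genes past 2-fold, so it is a description and no independent evidence. All 18 were above 0, against 62.5% of all genes tested, 12 were at or past a log2 ratio of 0.5, against 3.48%, and the median was 0.68. In cluster 4 the median was -0.18, with 11 of 18 below 0, and in the other clusters it lay between 0.41 and 0.74. These 18 genes were not left out when the clusters were made. The glycolytic enzyme gene Pgk1 was at 1173 CPM in Lef1-positive and 782 CPM in Lef1-zero cells (0.58, 0.53 to 0.63), and Vegfa, an angiogenic growth factor gene, at 102 and 63.0 CPM (0.69, 0.52 to 0.87). Car9, a carbonic anhydrase gene, was at 91.5 and 47.1 CPM (0.94, 0.75 to 1.14). Over cells with 0, 1, 2 and 3 or more Lef1 UMIs, 13 of the 16 genes at a sufficient level went up at each step, against 16.2% of all genes tested. In LApc 17 of the 18 genes were above 0, against 59.6% of all genes tested there, with a median of 0.69. Over the alternatives the LApcL median lay between 0.37 and 0.96 and the LApc median between 0.077 and 0.82.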
